A study of Mus musculus with 8 samples.

Results

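The 2 scrambled-shRNA controls of a knockdown study in cultured vascular smooth muscle cells (VSMC) of the mouse are described here, named ctr2 and ctr1 in the labels. They were chosen by their label alone, as the shSCR arrays, and are 4 of the 8 arrays of the series: 2 RNA samples of 4, each hybridised to 2 Illumina bead arrays. The other arrays, which carried shRNA against Uhrf1, entered no comparison. The controls ask what state the cultured cells were in before any knockdown, and how far that state varied between one control and the other.

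Cells of both ctr2 and ctr1 are labelled as primary VSMC of C57Bl6/J mice, 8 weeks old and of sex M. Both received lentivirus carrying scramble shRNA, 2 days of puromycin, and RNA collection at day 5, so infection and drug selection are part of the baseline in both. The sources used here do not give the vessel, the passage, the number of animals or whether the controls were separate cultures. The arrays of 1 control measure the same RNA sample, so their spread is technical, and with 1 RNA sample per control no test of a difference between the controls was possible. Every comparison below is a description, read against the spread between the arrays of one control.

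Smooth muscle cells of the vessel wall contract through a cytoskeleton of smooth muscle actin, myosin and calponin, whose genes are driven by serum response factor with its partner myocardin. In culture they leave this contractile state for a dividing, matrix-producing state, termed synthetic, in which contractile genes decline and genes of matrix, migration and inflammation are expressed.

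A probe entered when its detection p-value was under 0.05 on both arrays of at least 1 control, which kept 11479 of 25669 probes. Each gene was represented by its kept probe with the highest mean signal, giving 7881 genes of the 16582 with a named probe. Of these, 7179 were detected on all 4 arrays, 114 on both ctr2 arrays and neither ctr1 array, and 128 on both ctr1 arrays and neither ctr2 array. Values are background-corrected, quantile-normalized log2 signals, and a difference is the ctr2 mean minus the ctr1 mean on that scale. The share of probes detected was 45.5% and 46.3% on the ctr2 arrays, against 45.1% and 46.9% on the ctr1 arrays. An offset of 16 added before the log compresses differences of dim probes, so folds of dim genes are understated.

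One label was not borne out by the data. Xist, the noncoding RNA made from the inactive X chromosome, was detected on all 4 arrays by both of its probes. The brighter probe read 7.06 and 6.40 in ctr2, against 6.25 and 6.48 in ctr1. Of the Y-linked genes with a probe, Eif2s3y, Usp9y, Zfy1 and Zfy2 were not detected on any array, Kdm5d was detected on 1 ctr2 array, and Uty on 1 array of each control. Both controls therefore showed a pattern that goes against the label M, and neither could be left out to give values without it. Whether cells of both sexes were pooled was not tested.

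The contractile programme was only partly detectable. Of 30 contractile genes listed, 25 had a named probe and 13 passed the detection filter, all 13 of them on all 4 arrays. Among the 10 not detected on any array were Myh11 and Cnn1, smooth muscle myosin heavy chain and calponin 1, the markers that best define differentiated smooth muscle. Their single probes read 4.31 to 4.52 and 4.36 to 4.79 in ctr2, against 4.42 to 4.46 and 4.40 to 4.54 in ctr1. Myocd, Mylk and Casq2, which encode myocardin, the myosin light chain kinase and cardiac calsequestrin, were also not detected. The 13 contractile genes measured included Acta2, Tagln and Actg2, with these late markers not detected. Tagln, by 1 probe, read 5.34 and 5.08 in ctr2, against 4.94 and 4.79 in ctr1. That is near the dimmest detected signals of the arrays, 4.77 to 4.85. Whether probes of the undetected markers respond poorly was not tested, so their absence is not read as a loss of expression. In bulk RNA, fewer cells of a type and less RNA per cell cannot be told apart.

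Acta2, smooth muscle alpha actin, read 14.34 and 14.32 in ctr2, against 13.53 and 13.39 in ctr1. Both ctr2 arrays were above both ctr1 arrays, by 0.87 on the log2 scale, and its other kept probes gave up to 1.33. Actg2, the gamma smooth muscle actin of visceral muscle, read 6.60 and 6.66 in ctr2, against 5.27 and 5.53 in ctr1. At 1.23 it was the contractile gene furthest apart and its arrays did not overlap. Cnn2, a calponin found in many cell types, was 0.58 above ctr1, Tpm2, a tropomyosin, 0.47, and Tagln, the actin-binding protein SM22, 0.35. Srf, serum response factor itself, read 9.72 and 9.83 in ctr2, against 9.47 and 9.49 in ctr1, a difference of 0.29. Tpm1 was 0.29 higher, Csrp1 0.24, Smtn 0.15 and Myl6 0.11, again without overlap between the arrays of the controls. The 3 probes of Smtn differed in sign, from -0.17 to 0.15. For Cald1, at 0.20, and Vcl, at 0.05, the arrays overlapped. Csrp2, a LIM protein of smooth muscle, ran the other way at 10.49 and 10.55 in ctr2, against 11.11 and 11.12 in ctr1.

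Over these 13 genes the median difference was 0.29, 12 were above 0 and the arrays were separated upward in 10 and downward in 1. Over all 7881 genes the median was 0.01, 51.4% were above 0, and 27.4% had both ctr2 arrays above both ctr1 arrays while 27.4% had them below. Acta1, the skeletal muscle actin, belongs to the same near-identical family as Acta2 and Actg2, so cross-hybridisation between their probes cannot be told apart from expression. It read 6.22 and 6.13 in ctr2 and was not detected in ctr1, which makes it at least 2.58-fold higher in ctr2.

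To set the scale, the 2 RNA samples were compared over every detected gene. A gene was called apart when its means differed by at least 1 on the log2 scale and the arrays of one control lay wholly beyond those of the other. By that rule 63 genes (0.799%) were higher and 105 (1.33%) lower in ctr2, or 2.13% in either direction. Of these 168 genes, 138 were detected on all 4 arrays. Over the 7179 genes detected on all 4, the shares were 0.766% higher, 1.16% lower, 27.2% separated upward and 26.8% separated downward. Higher genes made up 37.5% of the calls, and scaling the arrays by their medians in place of quantiles gave 42 higher and 132 lower. The middle gene was 0.19 apart in absolute value, the gene at the 95th percentile 0.74 and the one at the 99th percentile 1.25.

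The difference between controls repeated from one pair of arrays to the other. Taken between the first array of ctr2 and the first array of ctr1, differences had an SD of 0.41 over genes, and taken between the second arrays 0.40. Between the arrays of ctr2 the SD was 0.27, and between those of ctr1 0.25. Across genes, first-array and second-array differences correlated at r = 0.66, over points that share probes and the joint normalization. Only 39 genes differed by at least 1 between the arrays of ctr2 and 7 between those of ctr1, against 221 between the first arrays of the controls and 205 between the second. Over the 7881 genes, arrays correlated at 0.992 within ctr2, 0.994 within ctr1 and 0.981 to 0.983 between controls. The first principal component of the 4 arrays, with 67.4% of the variance, had ctr2 arrays on one side and ctr1 arrays on the other.

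**Figure D1:**
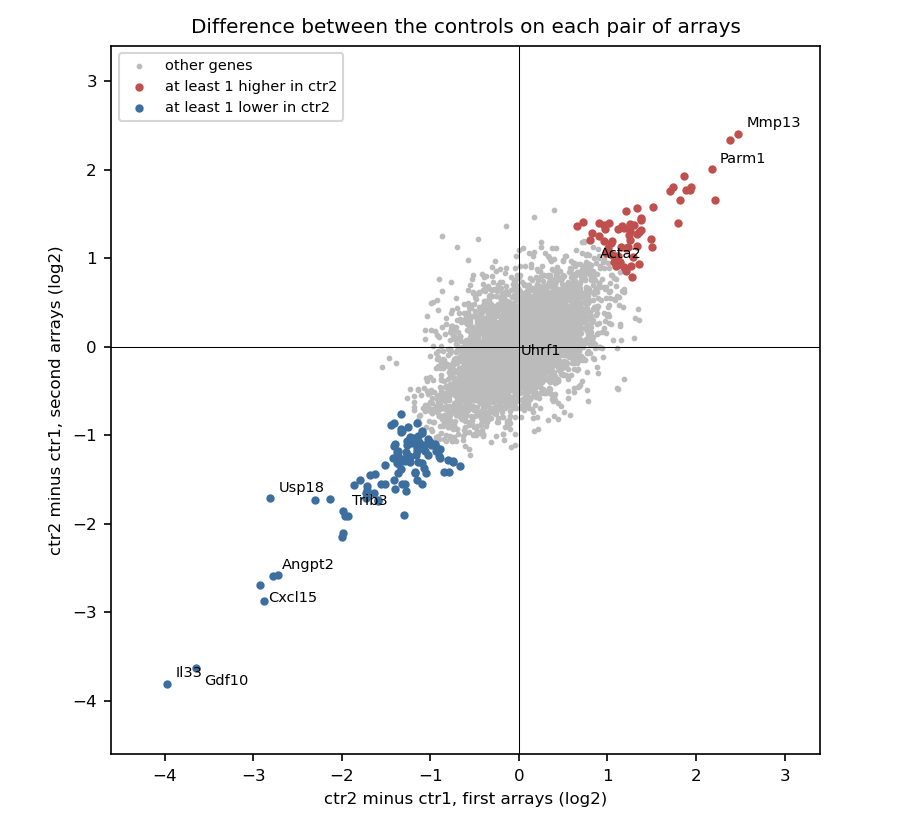
Each point is 1 of 7881 genes, with its ctr2 minus ctr1 difference (log2) on the first arrays on the horizontal axis and on the second arrays on the vertical axis; red points are the 63 genes called higher in ctr2 and blue points the 105 called lower. The call rule gives every called gene the same sign on both axes, so the agreement of the called genes is not a result. Their mean differences run from Il33 at -3.89 to Mmp13 at 2.44, and Uhrf1 lies near the centre.

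The spread depended on signal. Genes were ranked by mean signal and split into 4 equal bins. In the dimmest bin the SD of the first-array differences between controls was 0.50, against 0.35 for the root mean square difference between arrays of one control. In the brightest bin these were 0.29 and 0.15. Both fell with signal, and in each bin the spread between controls was the wider.

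**Figure D2:**
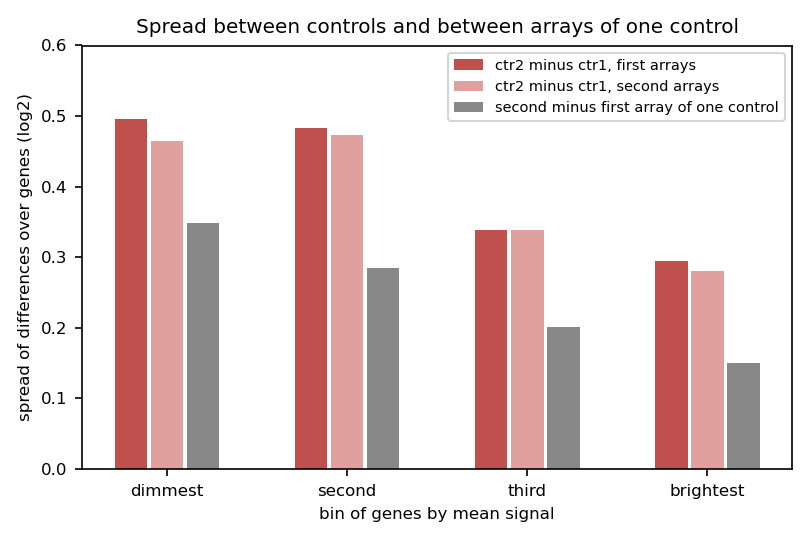
Bars give the spread over genes (log2) in 4 equal bins of genes by mean signal: the SD of ctr2 minus ctr1 differences on the first arrays (red) and second arrays (pink), and the root mean square difference between the 2 arrays of one control (grey). The grey bars run from 0.35 in the dimmest bin to 0.15 in the brightest, below both others throughout.

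Among genes detected on all 4 arrays, the one highest in ctr2 relative to ctr1 was Mmp13, a collagenase. It read 7.80 and 7.67 in ctr2, against 5.32 and 5.26 in ctr1, or 5.44-fold. Nppb, which encodes brain natriuretic peptide and responds to mechanical load in heart muscle, read 7.64 and 7.85 in ctr2, against 5.25 and 5.52 in ctr1, or 5.13-fold. Parm1, a membrane glycoprotein, was 4.26-fold higher by its brightest probe (2.09 on the log2 scale), and its other probe gave 0.52. Lims2, a LIM protein of integrin adhesions, was 3.66-fold higher, with its 3 probes between 0.96 and 1.98 on the log2 scale. Klk8, a secreted serine protease, was 3.61-fold higher and Ctsw, a cathepsin, 3.33-fold.

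Nqo1, a quinone reductase and a standard target of the oxidant-sensing factor Nrf2, read 9.71 and 9.57 in ctr2, against 8.00 and 7.81 in ctr1, or 3.33-fold. Klf2, a transcription factor induced by shear stress in endothelium, was 3.03-fold higher and Tnc, the matrix glycoprotein tenascin C, 2.73-fold. For Tnc the probes disagreed in size, from 0.16 to 1.45. Prl2c4 and Prl2c3, the proliferins, were among the most separated genes, at 3.73-fold and 3.41-fold, but belong to a family of near-identical copies whose probes may share transcripts. Klra4, Mycl, Tgm2 and Chst7 completed the 15 highest at 2.56-fold to 2.67-fold. Mycl is a relative of Myc, and Tgm2 encodes a transglutaminase that cross-links matrix proteins.

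In the other direction, Angpt2, which encodes angiopoietin 2, read 6.02 and 6.11 in ctr2, against 8.79 and 8.70 in ctr1, or 6.40-fold lower. Rgs4, a regulator of G-protein signalling, read 5.83 and 6.05 in ctr2, against 8.55 and 8.63 in ctr1, or 6.29-fold lower. In neither gene did the arrays of the controls come within 2 log2 units of each other. Bace2, a membrane protease, was 4.20-fold lower and Ppp1r3c, which targets a phosphatase to glycogen, 4.13-fold. Serpinb1a, a protease inhibitor, was 3.27-fold lower, and Osgin1, an oxidative stress gene, 3.17-fold.

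Mgp, matrix Gla protein, an inhibitor of vessel wall calcification, read 10.48 and 10.52 in ctr2, against 12.20 and 12.14 in ctr1, or 3.18-fold lower. Mt1, a metallothionein, read 11.36 and 11.45 in ctr2, against 13.09 and 13.10 in ctr1, or 3.22-fold lower. Lpl, lipoprotein lipase, was 3.13-fold lower, Stc2, a stanniocalcin, 3.12-fold and Npy4r, a neuropeptide receptor, 3.03-fold. The other members of the 15 lowest, Usp18, Isg15, Egr2 and Trib3, belong to the interferon, immediate early and amino acid groups described below.

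**Figure D3:**
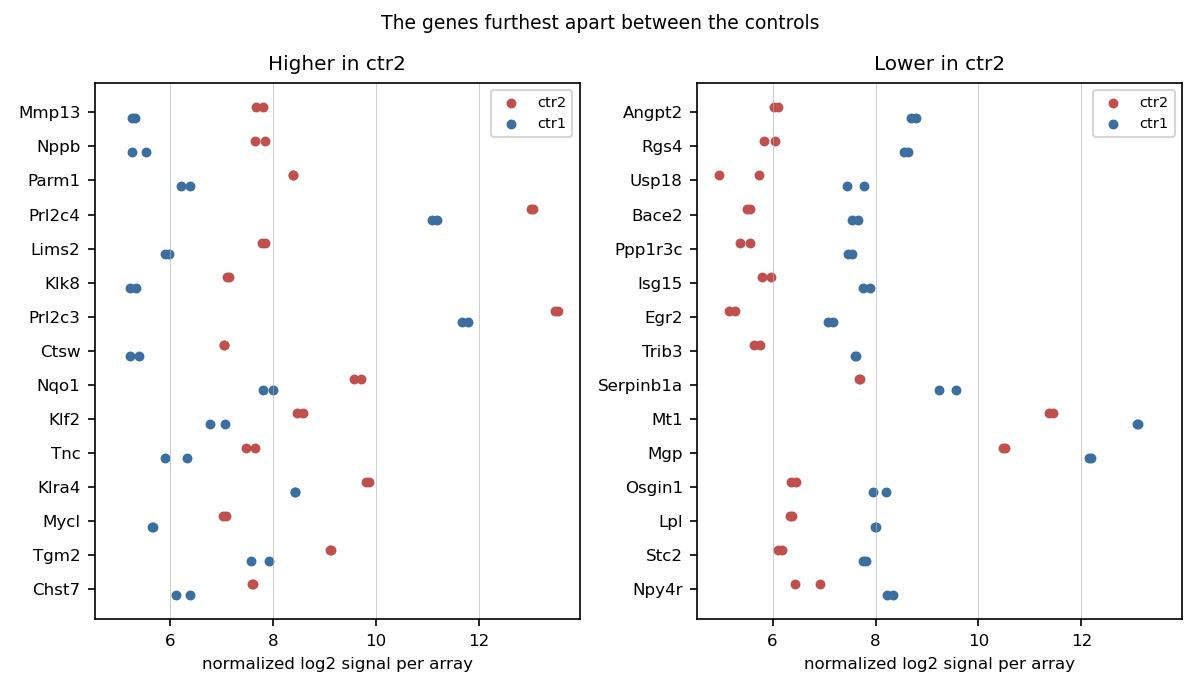
Normalized log2 signal (horizontal axis) on each of the 4 arrays for the 15 genes highest and the 15 lowest in ctr2 relative to ctr1 among genes detected on all arrays; red points are ctr2 arrays and blue points ctr1 arrays. The genes were taken from those called, so the red pair and the blue pair do not overlap by that rule.

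Some of the widest gaps lay at the edge of detection in one control. Il33, an alarmin cytokine of stromal nuclei, read 4.58 and 4.97 in ctr2, where 1 array detected it, against 8.56 and 8.78 in ctr1. Its difference of -3.89 is of uncertain size, since the ctr2 mean lay near the dimmest detected signal. Gdf10, a growth factor of the TGF-beta family named here after its values were seen, read 4.70 and 4.86 in ctr2, against 8.34 and 8.49 in ctr1, again with detection on 1 ctr2 array and a size that is uncertain in the same way. A gene not detected on either array of a control has only a bound, taken against the dimmest detected signal. On that footing Fmo1, a flavin monooxygenase, was at least 6.31-fold lower in ctr2. Cxcl15, a chemokine described mainly in mouse lung, was at least 5.25-fold lower. 6430548M08Rik followed at 3.34-fold, the interferon gene Oasl2 at 3.13-fold and Scin, an actin-severing protein, at 2.84-fold. The largest bounds upward were at least 2.87-fold for S100a7a, 2.58-fold for Acta1, given above, 2.33-fold for Rgs16, 1.90-fold for Avpr1a, the vasopressin receptor of vascular muscle, and 1.77-fold for Ptx3.

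The named genes were next read by gene list. For every list, counts of members separated or called stand against the shares over all genes. Those were 27.4% separated in each direction, 0.799% called higher and 1.33% called lower. Of the lists with 5 or more measured members, those with the lowest medians held complement, interferon, cholesterol, sterol regulation and amino acid genes, and those with the highest held contractile and protease genes. Of the 168 called genes, 53 were in one of the 45 lists. The lists were chosen with earlier results of these data known, so this count is not read as a result about them. Leaving out one array moved the median by over 1.5 times, or changed its sign, in 33 of the 45 lists, 18 of them with a median under 0.1 in size, so small medians are not read as shifts.

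**Figure D4:**
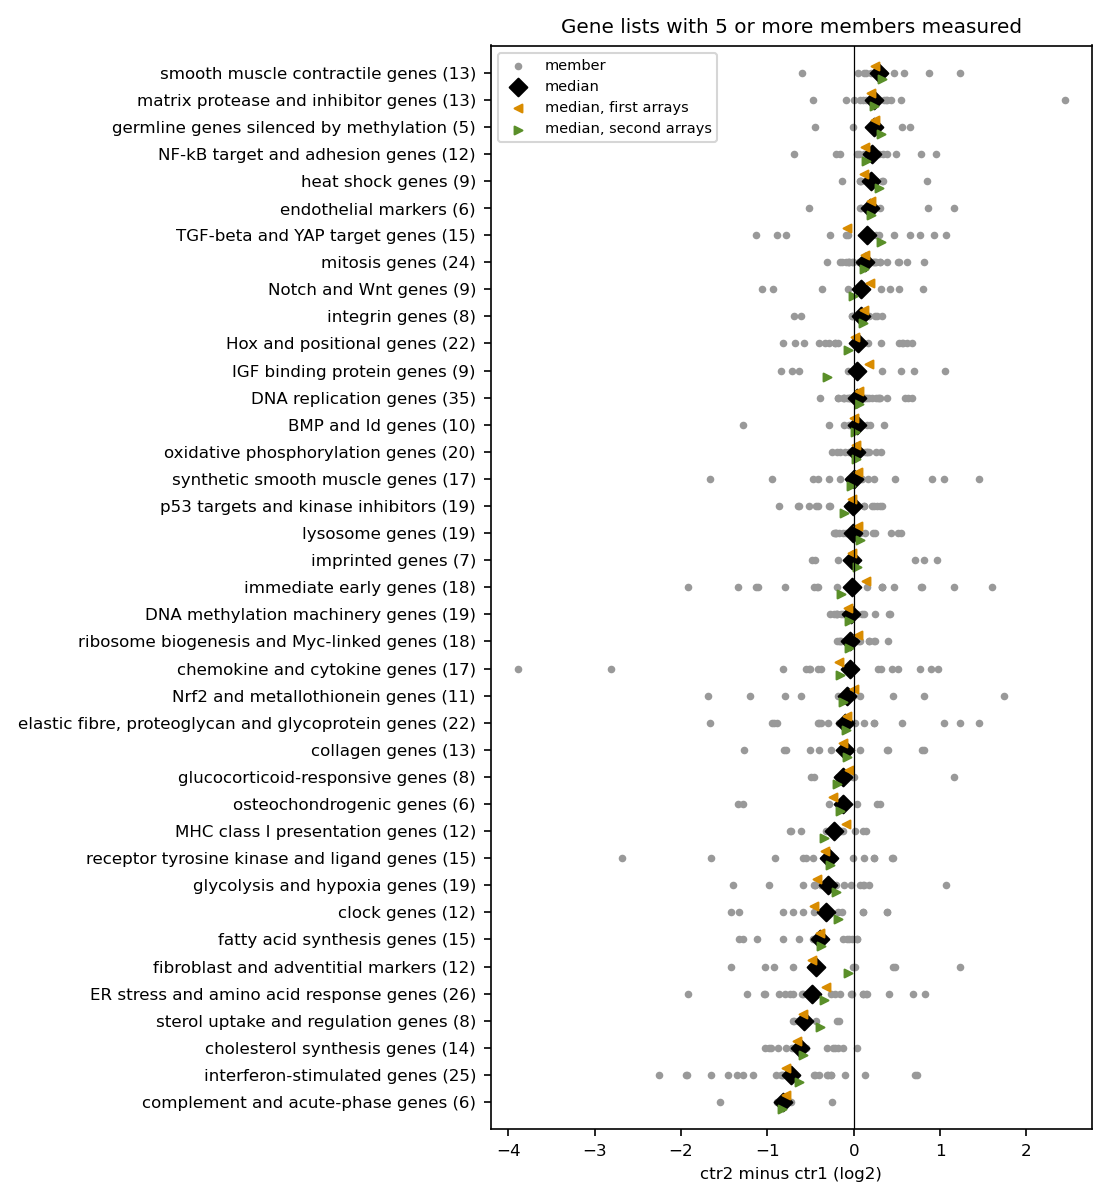
Each row is 1 gene list, with the number of measured members in brackets; grey points are members and black diamonds the list median of ctr2 minus ctr1 (log2), with orange and green triangles for the medians on the first and second arrays alone. Complement genes lie at -0.82, interferon-stimulated genes at -0.73 and cholesterol synthesis genes at -0.62, while contractile genes lie at 0.29.

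Most measured interferon-stimulated genes were lower in ctr2. These genes are switched on when type I interferon, made on sensing viral nucleic acid, activates transcription factors that include IRF9. Usp18, which restrains interferon receptor signalling, read 4.96 and 5.74 in ctr2, against 7.77 and 7.45 in ctr1, or 4.79-fold lower. Isg15, a ubiquitin-like modifier, read 5.80 and 5.97 in ctr2, against 7.76 and 7.88 in ctr1, or 3.83-fold lower. In both genes the ctr2 arrays lay below the ctr1 arrays, although the 2 ctr2 arrays differed in Usp18 by more than those of ctr1.

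Irf9, which encodes that factor, read 6.91 and 6.92 in ctr2, against 8.28 and 8.11 in ctr1, a difference of -1.29. Ifit3, which binds foreign RNA in complexes with its relatives, was -1.16 apart, with its arrays separated. Rsad2, the antiviral enzyme viperin, was not detected in ctr2 and read 6.35 and 6.14 in ctr1, which makes it at least 2.71-fold lower. The RNA sensor regulator Dhx58 and the immunity GTPase Igtp, each detected on 1 ctr2 array, were -1.46 and -1.36 apart. Ifit2 and Isg20 went the other way, at 0.73 and 0.71. For Ifit2 the values were 7.41 and 7.44 in ctr2, against 6.83 and 6.55 in ctr1.

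Of 40 interferon-stimulated genes listed, 37 had a named probe and 25 passed the filter, 22 of them below 0. With both ctr2 arrays below both ctr1 arrays there were 19, and above, 2. By the rule of at least 1 log2, 8 were lower and 0 higher. The filter itself bore on this count, since all 25 were detected on both ctr1 arrays and 16 on both ctr2 arrays. Among the 16 detected on all 4 arrays, 13 were below 0, 10 were separated downward against 26.8% of all such genes, and the median was -0.43, against -0.73 over the 25. With the 5 genes undetected in ctr2 set at their bounds the median was -0.62, and over all 37 without a filter it was -0.32.

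The promoters of these genes show the sequence through which interferon acts on its target genes, the interferon-stimulated response element. It was searched on both strands as a pair of GAAA blocks with any 2 bases between them, from 250 bases before the start of transcription to 50 after it. It occurred in 13 of the 20 measured members with a promoter in the RefSeq table of GRCm38.p6, and in 3.99% of the 27025 genes in that table. Among members separated downward it occurred in 9 of 14, and among those separated upward in 0 of 2. Its share over the 20 was 65%, so members separated downward did not stand out from the list. Stretches of 3 promoters of genes called lower are shown, 5′ to 3′ on the gene's strand, with the matches in capitals. In Isg15, which lies on the minus strand at chr4:156200842-156200941, 3 overlapping matches merge into one run. Rsad2 is on the minus strand at chr12:26456518-26456617 and Ifit3 on the plus strand at chr19:34583328-34583427. In Rsad2 and Ifit3 the matches appear as the reverse complement. A match describes the letters only and does not show binding in these cells.
Isg15: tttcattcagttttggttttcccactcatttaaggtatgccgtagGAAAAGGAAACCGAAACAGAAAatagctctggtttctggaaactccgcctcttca
Rsad2: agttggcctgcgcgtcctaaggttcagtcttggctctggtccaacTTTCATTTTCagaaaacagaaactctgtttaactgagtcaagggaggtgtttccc
Ifit3: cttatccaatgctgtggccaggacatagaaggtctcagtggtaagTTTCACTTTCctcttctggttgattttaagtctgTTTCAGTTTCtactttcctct

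Antigen presentation genes, many of them also interferon-responsive, lay closer together. Of 12 measured MHC class I presentation genes, 9 were below 0, 0 passed the rule of 1 log2, and the median was -0.22, or -0.11 without the second ctr1 array and -0.36 without the first. Tap2, a peptide transporter subunit, was lowest at 6.96 and 7.20 in ctr2, against 7.88 and 7.74 in ctr1. Psmb9, an immunoproteasome subunit, was -0.72 apart with detection on 1 ctr2 array. H2-M3 and B2m, the light chain of class I molecules, stood at 0.14 and 0.11. For B2m the arrays read 12.27 and 12.31 in ctr2, against 12.26 and 12.10 in ctr1.

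Complement and acute-phase genes had a median of -0.82 over 6 genes, each with both ctr2 arrays below both ctr1 arrays. Of these, 3 passed the filter through ctr1 alone, where they are high, so their direction was favoured by the filter. Over the 3 genes detected on all 4 arrays the median was -0.73, and over all 16 with a probe and no filter it was -0.21. Cp, the copper-carrying ferroxidase ceruloplasmin, read 5.08 and 5.18 in ctr2, against 6.64 and 6.73 in ctr1. C4b, complement component 4, was not detected in ctr2. Serpina3n, an acute-phase protease inhibitor, was -0.73 apart and C1s1, a serine protease of the classical pathway, -0.25.

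Secreted signals did not follow one direction. Among 17 measured chemokine and cytokine genes 7 were above 0 and 10 below. Il6, detected on 1 ctr1 array, read 5.16 and 6.41 in ctr2, against 4.76 and 4.86 in ctr1, a gap of 0.97 with a wider gap between the ctr2 arrays. Ccl2, a monocyte attractant, read 7.95 and 8.20 in ctr2, against 7.19 and 7.16 in ctr1, or 0.90 higher. Il33 and Cxcl15, given above, were the lowest. In the NF-kB target list 9 of 12 genes were above 0, with a median of 0.21 and 0 calls. Among the 10 detected on all 4 arrays 7 were above 0, with a median of 0.09, and without the first ctr2 array the median of the 12 was 0.10. Tnfaip3, an NF-kB feedback inhibitor, was 0.95 higher, and Ptgs2, the inducible cyclooxygenase, read 5.17 and 5.63 in ctr2 and was not detected in ctr1. Icam1 and Bcl3 were at -0.69 and -0.20.

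Most genes of sterol and lipid synthesis were lower in ctr2. Cholesterol synthesis genes are activated together by the membrane-bound factor SREBP2 when cell sterol is low, and fatty acid genes by its relative SREBP1. Of 20 cholesterol synthesis genes listed, 14 were measured, 13 below 0 and 11 separated downward, with a median of -0.62. Over all genes 27.4% were separated downward. Mvd, the mevalonate pyrophosphate decarboxylase, read 6.61 and 6.38 in ctr2, against 7.36 and 7.68 in ctr1, and at -1.02 was the 1 called gene. Lss, the lanosterol synthase, read 7.64 and 7.59 in ctr2, against 8.58 and 8.61 in ctr1, a difference of -0.98. In both, one early and one late in the pathway, the ctr2 arrays lay below the ctr1 arrays.

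Hmgcs1, the synthase at the pathway's entry, read 11.92 and 11.71 in ctr2, against 12.64 and 12.55 in ctr1, and Fdps, which makes farnesyl pyrophosphate, was -0.88 apart. Ebp and Pmvk were closest to 0, at 0.04 and -0.13. Among the 12 members detected on all 4 arrays the median was also -0.62, with 11 below 0. All 8 measured genes of sterol uptake and regulation were below 0, and 7 were separated downward, against 27.4% of all genes. Their median was -0.57, or -0.19 over the 13 with a probe and no filter. The 8 included Insig1, the sterol-sensing retention protein, at -0.71, Srebf1, detected on 1 ctr2 array, at -0.69, and Srebf2 at -0.55. Npc2 and Scap were closest to 0, at -0.17 and -0.19.

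Of 15 measured fatty acid synthesis genes, 13 were below 0, with a median of -0.39. Of the 15, 9 were separated downward and 0 upward, against 27.4% each way over all genes. Fasn, the fatty acid synthase, was listed but not detected on any array. Scd2, a stearoyl-CoA desaturase, read 6.66 and 6.27 in ctr2, against 7.82 and 7.78 in ctr1. Acss2, which makes acetyl-CoA from acetate, read 5.64 and 5.84 in ctr2, against 6.94 and 7.11 in ctr1. Lpin1, a phosphatidate phosphatase, was not detected in ctr2 and was at least 2.04-fold lower. These 3 were called, against 1.33% of all genes called lower, and Lpin1 passed the filter through ctr1 alone. Agpat2 and Gpam, acyltransferases of glycerolipid synthesis, stood at 0.04 and 0.03. The core of the sterol regulatory element, searched as CACNCCAC on both strands in the same windows, was in 1 of 12 promoters of measured cholesterol genes, that of Hmgcs1. Its share was 7.12% of all genes in the table and 7.45% of measured genes with a promoter.

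Of 26 measured genes of ER stress and the amino acid response, 19 were below 0. Targets of the amino acid arm and folding genes are described apart below, a division of the list made after the values were seen. In that response the kinases PERK and GCN2 raise the transcription factor ATF4, whose targets import and make amino acids and, with prolonged stress, favour death, while a separate arm raises chaperones. Trib3, a pseudokinase target of ATF4, read 5.64 and 5.74 in ctr2, against 7.62 and 7.60 in ctr1, or 3.78-fold lower. Chac1, which degrades glutathione, read 9.75 and 9.71 in ctr2, against 10.99 and 10.94 in ctr1, a difference of -1.24. Ddit3, the factor CHOP, was -1.04 apart and Vldlr, a lipoprotein receptor, -1.03. The arrays of all 4 were separated.

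Atf4 itself was -0.50 apart, Asns, asparagine synthetase, -0.59, Slc7a5, a large amino acid transporter, -0.74, and Sesn2, which senses leucine, -0.87. The folding genes Hspa5, Pdia6, Creld2, Dnajb9, Hsp90b1, Dnajc3 and Pdia4 lay between -0.04 and 0.83. Hspa5, the chaperone BiP, stood at 0.83 with detection on 1 ctr1 array, but its arrays read 6.18 and 6.57 in ctr2, against 4.82 and 6.28 in ctr1, and overlapped. Pdia6, a disulfide isomerase, was 0.69 higher with separated arrays. Over the 26 genes the median was -0.48, or -0.29 without the second ctr1 array. Of the 26, 17 were separated downward and 2 upward, against 27.4% each way over all genes. The 4 called lower stand against 1.33% of all genes. Over the 24 detected on all 4 arrays the median was also -0.48.

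The composite element that ATF4 binds with C/EBP partners was searched as TGATGNAA on both strands. It was in 7 of 24 members with a promoter, in 7 of the 15 separated downward and 0 of the 2 separated upward. Its share was 4.51% of all genes in the table and 2.80% of measured genes with a promoter. The list joins amino acid targets with folding genes, so this split by direction cannot be told apart from one by kind of gene. Stretches of 3 promoters of members lower in ctr2 show it, in capitals as its reverse complement. The genes lie on the plus strand, at chr2:119351004-119351101 for Chac1, chr19:27216775-27216872 for Vldlr and chr8:94386272-94386369 for Herpud1, an ER degradation factor at -0.71. All 3 carry the same letters.
Chac1: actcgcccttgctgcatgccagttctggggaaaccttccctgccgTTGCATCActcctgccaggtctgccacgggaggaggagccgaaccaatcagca
Vldlr: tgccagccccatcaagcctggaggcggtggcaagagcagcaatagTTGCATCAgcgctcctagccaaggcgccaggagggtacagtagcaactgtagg
Herpud1: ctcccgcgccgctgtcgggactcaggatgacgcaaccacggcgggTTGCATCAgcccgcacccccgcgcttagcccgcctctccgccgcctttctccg

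**Figure D5:**
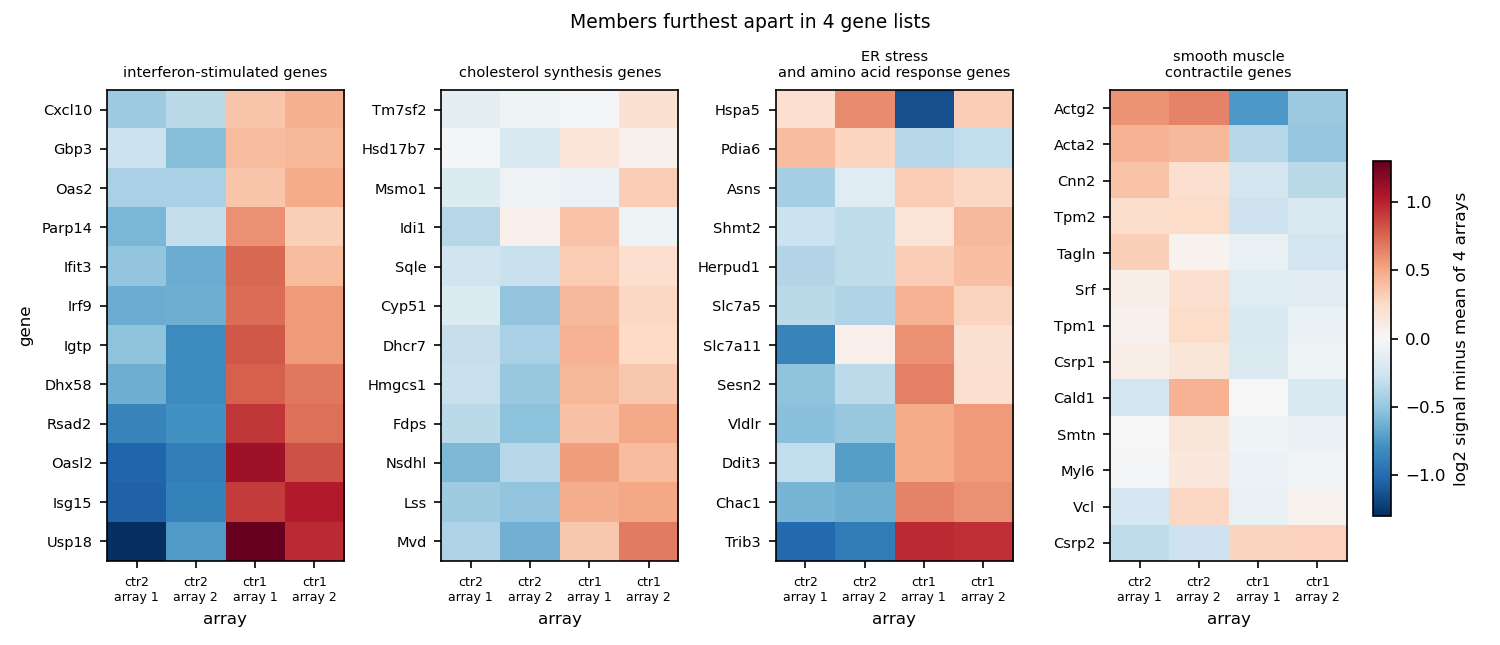
Colour gives the log2 signal of each gene on each array minus its mean over the 4 arrays, ctr2 arrays left and ctr1 arrays right, for the 12 members furthest apart in 3 lists and all 13 measured contractile genes. Interferon, cholesterol and most amino acid genes are blue in ctr2 and red in ctr1, contractile genes except Csrp2 lean the other way, and Hspa5 is low on 1 ctr1 array alone.

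Most glycolytic genes were lower in ctr2 and oxidative phosphorylation genes were close to equal. Of 19 measured glycolysis and hypoxia genes, 14 were below 0 and 13 separated downward, against 27.4% of all genes. Their median was -0.30, or -0.19 without the first ctr1 array and -0.11 over the 25 with a probe and no filter. Pdk1, which restrains pyruvate entry into mitochondria and is induced by hypoxia-inducible factor, read 6.44 and 6.37 in ctr2, against 7.80 and 7.79 in ctr1. Pfkl, the liver-type phosphofructokinase, was -0.98 apart. Adm, adrenomedullin, also hypoxia-inducible, went the other way at 1.06, and Egln3 stood at 0.18. In 20 oxidative phosphorylation genes the median was 0.03 with 0 calls, between Uqcrc2 at -0.25 and Ndufa1 at 0.32.

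Clock genes leaned lower and immediate early genes lay on both sides. Clock genes had a median of -0.32 over 12, or -0.20 without the first ctr2 array and -0.16 over the 16 with a probe and no filter. Of the 12, 7 were separated downward, against 27.4% of all genes. Bhlhe40, a clock repressor that also answers hypoxia, read 7.44 and 7.58 in ctr2, against 8.95 and 8.92 in ctr1, and Ciart, another repressor, was -1.32 apart. Nr1d2 and Nfil3 both stood at 0.38. Immediate early genes, induced within minutes of a stimulus or of handling, split evenly, 9 above 0 and 9 below. Of these, 2 were called higher and 4 lower, against 0.799% and 1.33% of all genes.

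Egr2 read 5.15 and 5.26 in ctr2, against 7.08 and 7.18 in ctr1, or 3.79-fold lower, and Fos 5.90 and 6.32 in ctr2, against 7.33 and 7.57 in ctr1. Egr1 and Atf3, which was detected on 1 ctr2 array, were -1.11 and -1.13 apart. Dusp1, a phosphatase that silences MAP kinases, read 10.74 and 10.81 in ctr2, against 9.54 and 9.70 in ctr1, and with Klf2 was higher. Of 8 glucocorticoid-responsive genes, which include Dusp1, 6 were below 0 with a median of -0.12, or -0.02 without the second ctr1 array, the lowest being Errfi1 at -0.50 and Per1 at -0.46, and Fkbp5 was within 0.01 of 0.

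The list of TGF-beta and YAP genes lay on both sides, with 9 of 15 members above 0 and 6 below. Its YAP targets were not counted as a list of their own, and Ankrd1 and Amotl2 are named after their values were seen. YAP is a coactivator that enters the nucleus of spread or stretched cells. Ccn2, connective tissue growth factor and the best known YAP target, read 14.82 and 14.73 in ctr2, against 13.69 and 13.71 in ctr1, a difference of 1.07. Ccn1 read 10.63 and 10.38 in ctr2, against 9.59 and 9.57 in ctr1, a difference of 0.93. Ankrd1 and Amotl2 were 0.77 and 0.65 higher. In Ccn2, Ccn1, Ankrd1 and Amotl2 the arrays were separated.

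Tgfbr3, the co-receptor betaglycan, read 7.45 and 6.97 in ctr2, against 8.29 and 8.39 in ctr1. Tgfbr2, the ligand-binding receptor, read 9.86 and 9.80 in ctr2, against 10.63 and 10.80 in ctr1, a difference of -0.89, while its other probe gave -0.34. Tgfb2, one of the ligands, was -0.78 apart. With members on both sides, the list's median was 0.16 over 15 genes, and it was -0.07 on the first arrays and 0.31 on the second. The TEAD motif GGAATG, through which YAP acts on DNA, was in 5 of 11 members with a promoter, against 16.6% of all genes and 14.1% of measured genes. It was in 5 of 6 separated upward and 0 of 2 downward. The list joins YAP targets with TGF-beta ligands and receptors, so this split by direction cannot be told apart from one by kind of gene. A role of YAP in the difference was not tested. One stretch is shown, from the promoter of Ccn1 on the minus strand at chr3:145650038-145650133, with the match in capitals as its reverse complement.
Ccn1: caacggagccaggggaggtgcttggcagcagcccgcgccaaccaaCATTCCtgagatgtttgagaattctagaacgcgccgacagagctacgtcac

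Matrix genes varied gene by gene. Among 13 collagens, 5 were separated upward and 6 downward, around a median of -0.11, or -0.26 without the second ctr2 array. Col6a2, a chain of the microfibrillar collagen VI, read 8.67 and 8.77 in ctr2, against 10.04 and 9.95 in ctr1, and its partner chain Col6a1 was -0.80 apart. Col5a2 and Col7a1 were 0.81 and 0.79 higher. Of 22 elastic fibre, proteoglycan and glycoprotein genes, 3 were called higher, Tnc, Mfap5 and Thbs1, and Mgp lower, with a median of -0.10, or -0.01 without the first ctr2 array. Thbs1 read 9.34 and 9.30 in ctr2, against 8.29 and 8.26 in ctr1, while its relative Thbs2 read 8.13 and 8.24 in ctr2, against 9.25 and 9.01 in ctr1.

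Protease and inhibitor genes had a median of 0.24 over 13, or 0.14 without the first ctr1 array, with Mmp13 the 1 call, Timp1 at 0.55, Adamts5 at -0.09 and Adamts1 at -0.47. Integrins had a median of 0.08 over 8, between Itga11 at -0.69 and Itgav at 0.33. The list of synthetic smooth muscle genes, which shares Tnc, Thbs1, Thbs2 and Mgp with these, had a median of 0.01 over 17, with 9 above 0 and 8 below.

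Growth factor genes held several of the lower calls. Among 15 receptor tyrosine kinase and ligand genes the median was -0.29, with Angpt2 and Ntrk3, a neurotrophin receptor undetected in ctr2, called lower. Over the 24 with a probe and no filter the median was -0.0046, and in the authors' values it was -0.073. Over the 12 detected on all 4 arrays it was -0.26. Hbegf and Igf1r were highest, at 0.46 and 0.44. Bmp4 read 10.12 and 9.94 in ctr2, against 11.41 and 11.23 in ctr1, and Bmpr1a was -0.29 apart, while Id3 and Bmp1 stood at 0.35 and 0.19. The 4 probes of Bmp1 differed in sign, from -0.25 to 0.19. Igfbp4, an inhibitor of insulin-like growth factors, read 12.52 and 12.59 in ctr2, against 11.51 and 11.48 in ctr1. The related Igfbp5 was not detected in ctr2 and Igfbp6 was -0.71 apart. Of 9 Notch and Wnt genes the lowest were Sfrp2, a secreted Wnt antagonist undetected in ctr2 and at least 1.54-fold lower, and Notch1 at -0.94. The highest were Ccn5 at 0.80 and Notch4, undetected in ctr1 and at least 1.16-fold higher. Sox9, a cartilage regulator, read 5.60 and 5.58 in ctr2, against 6.97 and 6.90 in ctr1.

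Stress genes outside these groups were mixed. In the Nrf2 and metallothionein list, Nqo1 was higher while Mt1 and Gstm1, a glutathione transferase at -1.20, were lower, and Hmox1 stood at -0.07. Txnrd1, at 0.82, read 6.10 and 7.23 in ctr2, against 5.93 and 5.77 in ctr1. Of 9 heat shock genes 8 were above 0, with a median of 0.20, or 0.12 without the second ctr2 array, Hspb1 the highest at 0.85, then Hspe1 at 0.34, and Bag3 the lowest at -0.13.

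Genes of cell division had small median differences between the controls. In 35 measured DNA replication genes, all detected on all 4 arrays, the median was 0.04 and 0 were called in either direction. Of the 35, 11 were separated upward and 4 downward. Gins3 and Rrm2 were highest, at 0.67 and 0.63, and Dut and Mcm7 lowest, at -0.39 and -0.19. In 24 mitosis genes the median was 0.13, 13 were separated upward and 3 downward, and 0 were called. Of the 24, 4 were undetected in ctr1 and passed the filter through ctr2. Among the 20 detected on all 4 arrays the median was 0.07, with 9 separated upward and 3 downward. Over all genes detected on all 4 arrays, 27.2% were separated upward and 26.8% downward. Ube2c, a ubiquitin-conjugating enzyme of mitotic exit, stood at 0.81, and Ccna2, cyclin A2, undetected in ctr1, was at least 1.37-fold higher, with Cdc25c at -0.31 and Ndc80 at -0.16. Of the genes with a probe, 35 of 38 for replication and 20 of 30 for mitosis were detected on all 4 arrays.

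Among 19 p53 targets and kinase inhibitors the median was -0.01 and 0 were called, with Cdkn2b, the inhibitor p15, at 0.32 and Sesn2 at -0.87. Cdkn1a, the inhibitor p21, read 11.35 and 11.30 in ctr2, against 10.98 and 11.13 in ctr1. Lysosome genes had a median of -0.01 over 19, from Ctsh at -0.23 to Ctsz at 0.55, and ribosome biogenesis genes -0.04 over 18, from Myc at -0.20 to Nolc1 at 0.40.

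Uhrf1, the target of the knockdown and the factor that guides maintenance methylation after replication, did not differ between the controls by more than between arrays. It read 11.42 and 11.60 in ctr2, against 11.49 and 11.50 in ctr1, a difference of 0.02. Its partner Dnmt1, the maintenance methyltransferase, read 9.49 and 9.36 in ctr2, against 9.53 and 9.42 in ctr1. In 19 DNA methylation machinery genes the median was -0.04 with 0 calls, between Trim28 at -0.28 and Cbx1, a heterochromatin protein, at 0.42. Of 23 germline genes kept silent by methylation that had a probe, 16 were not detected on any array and 5 were measured, with a median of 0.23 (0.15 without the first ctr2 array and 0.40 without the first ctr1 array) and 0 calls.

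Among 7 measured imprinted genes the lowest were Igf2r and Dlk1, at -0.48 and -0.45, and the highest Snrpn and Ndn, at 0.97 and 0.81. The arrays of Snrpn read 6.41 and 6.30 in ctr2, against 5.44 and 5.34 in ctr1. Hox and other positional genes, which record the origin of mesenchyme along the body, had a median of 0.05 over 22 with 0 calls. Prrx1 and Foxc1 were lowest, at -0.82 and -0.68, and Foxc2 highest at 0.67, with Tbx18, undetected in ctr1, at least 1.32-fold higher. Hoxa5 stood at 0.56, Hoxb7 at 0.32 and Hoxa7 at -0.33.

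Markers of other cells that a vessel wall culture can hold were measured beside these groups, and their part in the differences was not tested. Fibroblast and adventitial markers had a median of -0.43 over 12 of 17 with a probe, and -0.079 over the 17 without a filter. Over the 12 it was -0.07 on the second arrays alone, -0.20 without the first ctr1 array and -0.26 without the first ctr2 array. Ogn, the proteoglycan osteoglycin, read 8.11 and 8.21 in ctr2, against 9.39 and 9.77 in ctr1, a difference of -1.42, while its other probe gave -0.52. Scara5, a ferritin receptor, was not detected in ctr2 and at least 1.57-fold lower. Mfap5, a microfibril protein, read 6.85 and 6.92 in ctr2, against 5.73 and 5.59 in ctr1. The surface marker Cd248 stood at 0.02, and its other probe at 0.51. Thy1, another surface marker, read 11.20 and 11.29 in ctr2, against 11.25 and 11.25 in ctr1.

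Of 16 endothelial markers with a probe, 6 were measured and 7, including Pecam1 and Cdh5, were not detected on any array. Ptprb, a receptor phosphatase, was called higher at 1.17, and Flt1, a VEGF receptor, was 0.86 higher. Kdr, another, stood at 0.31, Eng at 0.08 and Egfl7 at 0.07, while Esam, an adhesion molecule detected on 1 ctr2 array, had both ctr2 arrays below both ctr1 arrays at -0.52. Of 15 macrophage and leukocyte markers with a probe, 11 were not detected on any array and 2 were measured, Cd14 at 0.47 and Lyz2 at 0.24. Of 9 pericyte markers with a probe, 4 were measured. Rgs5 was called lower at -1.01, Pdgfrb stood at -0.29, Kcnj8, detected on 1 ctr2 array, at -0.17 and Cspg4 at 0.15. Of 11 adipocyte markers with a probe, 2 were measured, Lpl, given above, and Pparg at 0.52. Adipoq, Fabp4 and Plin1 were not detected on any array. Of 7 glial and neuronal markers with a probe, 2 were measured, Ncam1 at 0.65 and Mbp at -0.08. The other probe of Ncam1 gave 0.07. Of 12 striated muscle markers with a probe, 3 were measured, Acta1, given above, Tnnc1 at 0.48 and Myl4 at 0.21.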

How the data were processed

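Per the file headers, the deposited signals are linear mean bead intensities that were not normalized between arrays. Detection p-values were deposited beside them, per the file headers. The submitters' processing notes name GenomeStudio 2011.1 and lumi. Background subtraction by the authors is not stated. The authors' processed table is on a log2-like scale of unstated base and transform, with a median of 7.86 on each array used. It served as an alternative, and its array deviations correlated with those used here at 0.956 to 0.962 over the 5368 probes brighter than 300 on average.

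There were 25671 probes, beside 19602 blank lines. One probe with a shifted row and one with a text entry were left out, which left 25669. Of these, 23950 had 1 gene symbol in the platform annotation, 0 had several and 1719 had none, and 23934 matched the RefSeq table of GRCm38.p6 by Entrez identifier. Of the 11479 kept probes, 670 had no symbol. Of the genes, 2101 had several kept probes, which differed in sign in 787, among them 0 of the 33 such genes that were called. The value given for a gene is that of its brightest kept probe unless another is named.

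Signals of the 4 shSCR arrays were corrected with normexp from detection p-values at an offset of 16, quantile-normalized and log2-transformed (neqc, limma 3.58.1, R 4.3.3). The median was 4.67 on every array. Raw medians were 103 and 117 in ctr2, against 115 and 116 in ctr1. The number of arrays limits the precision. A gene undetected in one control has a bound, "at least N-fold", the bright control's mean against the higher of the dimmest detected signal and its own. The pipeline was tested on simulated data.

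The members and the gene lists were chosen with earlier results of these data known. Genes named are the 15 highest and 15 lowest called genes detected on all 4 arrays, the 5 largest bounds in each direction, the contractile genes and Uhrf1. The 2 highest and 2 lowest members of each list were also set to be named. Not all of them are, S100a4, Tdrkh and Rhox5 being among those left out, so named members need not be a list's extremes. Any other gene named was chosen after its values were seen. Alternatives covered normalization, background, offset, detection filter, probe choice, single arrays and the size of the difference. Coordinates and promoter sequences come from the RefSeq table of GRCm38.p6, and the build behind the probes was not used.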

Additional observations from a re-analysis of the deposited data

How the results depend on the processing

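No paired analysis was possible because each control is 1 RNA sample and its array numbers mark technical arrays, so no result comes from a test. Against 63 genes higher and 105 lower, the counts were 18 and 28 without background correction, 7 and 10 in the authors' processed values, 27 and 50 at an offset of 50, 446 and 522 for differences of at least 0.5, and 3 and 10 for differences of at least 2. Leaving out one array gave 66 to 87 higher and 109 to 112 lower. Every gene called without background correction, at the larger offset or in the authors' values was among the 168. Omitting background correction and raising the offset compress dim signals by construction, and the cause of the smaller counts in the authors' values was not tested.

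The contractile median was 0.21 in the authors' values, 0.11 without a filter and 0.21 to 0.35 leaving out one array. The cholesterol median was -0.37 without background correction, -0.27 in the authors' values, -0.55 without a filter, -0.45 at an offset of 50, -0.68 as a median over probes and -0.69 to -0.53 leaving out one array. The interferon median was -0.86 under median scaling, -0.28 without background correction, -0.19 in the authors' values, -0.46 over genes with detection p under 0.01 on all arrays, -0.43 over genes detected on all 4 arrays, a setting chosen after seeing the data, -0.32 without a filter, -0.40 at an offset of 50, -0.78 on first arrays, -0.63 on second arrays and -0.78 to -0.63 leaving out one array. The amino acid response median was -0.32 without background correction, -0.16 in the authors' values, -0.37 without a filter, -0.32 on first arrays, -0.34 on second arrays and -0.53 to -0.29 leaving out one array.

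Of 45 list medians, 24 kept their sign in every alternative, 11 larger than the spread between arrays changed sign in at least 1, and the 10 others that changed sign lay within that spread. Of the 11, with the stricter detection filter, pericyte markers gave 0.15, chemokine genes 0.31 and Nrf2 genes 0.034. Without a filter, adipocyte markers gave 0.033, glial markers -0.02, chemokine genes 0.11, Notch and Wnt genes -0.0409 and germline genes -0.0059. Under median scaling, DNA replication genes gave -0.0061, integrins -0.083 and Hox genes -0.11, with the median of all genes at -0.08. On first arrays, TGF-beta and YAP genes gave -0.075 and Nrf2 genes 0.0086. On second arrays, Notch and Wnt genes gave -0.011 and Hox genes -0.067. As a median over probes, Notch and Wnt genes gave -0.061. Leaving out one array, chemokine genes ran from -0.31 to 0.014, above 0 without the first ctr2 array, and TGF-beta and YAP genes from -0.040 to 0.31, below 0 without the second ctr1 array. The cause of these reversals was not tested. Of 203 named genes followed, 69 were called and 0 of these changed sign in any alternative, while 24 of the 134 others did.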
